A study of Mus musculus with 8 samples.

Results

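The genes described here encode the ligands, receptors, Smads, antagonists and activating proteins of TGF-beta and BMP signalling, together with the Smad corepressor Ski. They were taken by name from a list of 42 genes, all of which were found in the table of fragments per locus. A gene entered the tests where at least 2 of the 8 libraries held a normalised value of at least 10. This filter was passed by 40 of the 42 genes, out of 16623 loci that passed it in all. The 2 genes that did not pass were Gdf15, a stress-induced relative of the family with 0 to 5 fragments per library, and Inhbb, the activin B subunit gene, with 0 to 6. The 40 genes comprised 14 ligands, 11 receptors, 6 Smads, 5 antagonists, Ski, and 3 genes of ligand latency or processing (Ltbp1, Ltbp2 and Bmp1).

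The measurements came from mouse embryoid bodies at day 9, floating aggregates of embryonic stem cells that form tissues of all germ layers, on a C57BL/6 background. RNA-seq was done in 4 groups of 2 libraries, a knockout of Prdm16, a wild-type control of that knockout, a knockout of the PR domain of PRDM16, which the sample titles place at exon 4, and a separate wild-type control for it. PRDM16 is a zinc finger transcription factor, and the PR domain lies at its N-terminus and resembles the SET domain of histone methyltransferases. The question was which genes depend on PRDM16, or on its PR domain, in this differentiation. The labels do not say whether replicates were separate cultures, so the p-values measure the spread between libraries only, in part perhaps technical. They do not say either how many clones each genotype represents, so that genotype and clone cannot be told apart.

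Ligands of this family bind pairs of type I and type II serine/threonine kinase receptors on the cell surface. The activated type I receptor phosphorylates Smad2 and Smad3 in the TGF-beta and activin branch, or Smad1, Smad5 and Smad9 in the BMP branch, and these enter the nucleus with the shared partner Smad4. Secreted antagonists such as noggin, chordin, gremlin and follistatin keep ligands from their receptors, and latent TGF-beta binding proteins hold TGF-beta in the matrix until it is released. Ski binds the Smads and recruits corepressors to them, and PRDM16 is known to act with Ski as a repressor partner of Smads. In differentiating embryonic stem cells BMP and activin signals pattern mesoderm and endoderm, and the heart and blood vessels form under their influence.

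Depth was 6273789 to 9086885 fragments on named loci per library. Normalised fragments are the fragments of a locus after division by a size factor for each library. Fold changes are log2 differences of (normalised fragments + 1) with their standard errors (SE) from a limma model of all 8 libraries, adjusted over all 16623 loci by the Benjamini-Hochberg method, and a gene is said to have risen or fallen where the adjusted p was below 0.05. Prdm16 itself had 11.2 and 1.10 normalised fragments in the Prdm16 knockout libraries, against 24.4 and 26.3 in the Prdm16 control libraries (log2 fold change -2.38 ± 0.50, limma adjusted p = 0.000306). It had 23.3 and 15.7 in the PR domain knockout libraries, against 44.6 and 22.7 in the PR domain control libraries (adjusted p = 0.377), where a fragment count over the whole gene does not show the loss of 1 domain. The summed value of 4 Y-linked genes (Ddx3y, Uty, Kdm5d and Eif2s3y) was 0 to 1.10 in the Prdm16 knockout libraries, against 1246 to 1323 in the Prdm16 control libraries, and 3082 to 3167 in the PR domain knockout libraries, against 2750 to 2752 in the PR domain control libraries. The Prdm16 knockout and its control thus also differed in Y-linked transcripts, and the part of that difference in the results was not tested.

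Per transcript length, in the FPKM values that the authors deposited, the genes spanned a wide range of levels. Fstl1, a secreted glycoprotein of the follistatin-like group, had the highest mean over the 8 libraries at 251 FPKM, with 223 to 296 FPKM in single libraries, and no other gene of the set reached its lowest library. Bmp4, the BMP ligand with the highest level, followed at 75.2 FPKM (42.4 to 98.7), Smad4 at 63.1 FPKM (52.7 to 74.8), the type I BMP receptor gene Bmpr1a at 54.8 FPKM (52.8 to 57.7) and Smad3 at 49.9 FPKM (36.8 to 65.7). The library ranges of these neighbours overlapped, so that their order was not resolved. Among the TGF-beta ligands Tgfb2 averaged 40.1 FPKM, Tgfb1 26.1 FPKM and Tgfb3 13.9 FPKM, and the lowest library of Tgfb2 (33.7 to 44.5 FPKM) lay above the highest of Tgfb1 (19.5 to 31.5 FPKM). The BMP-branch Smads were unequal, with Smad5 at 34.5 FPKM, Smad1 at 11.9 FPKM and Smad9 at 1.57 FPKM. The dedicated BMP antagonists were all low, with Nog at 1.55 FPKM, Chrd at 0.804 FPKM and Grem1 at 0.359 FPKM, next to the BMP receptor gene Bmpr1b at 0.450 FPKM and the activin A subunit gene Inhba at 0.468 FPKM.

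**Figure D1:**
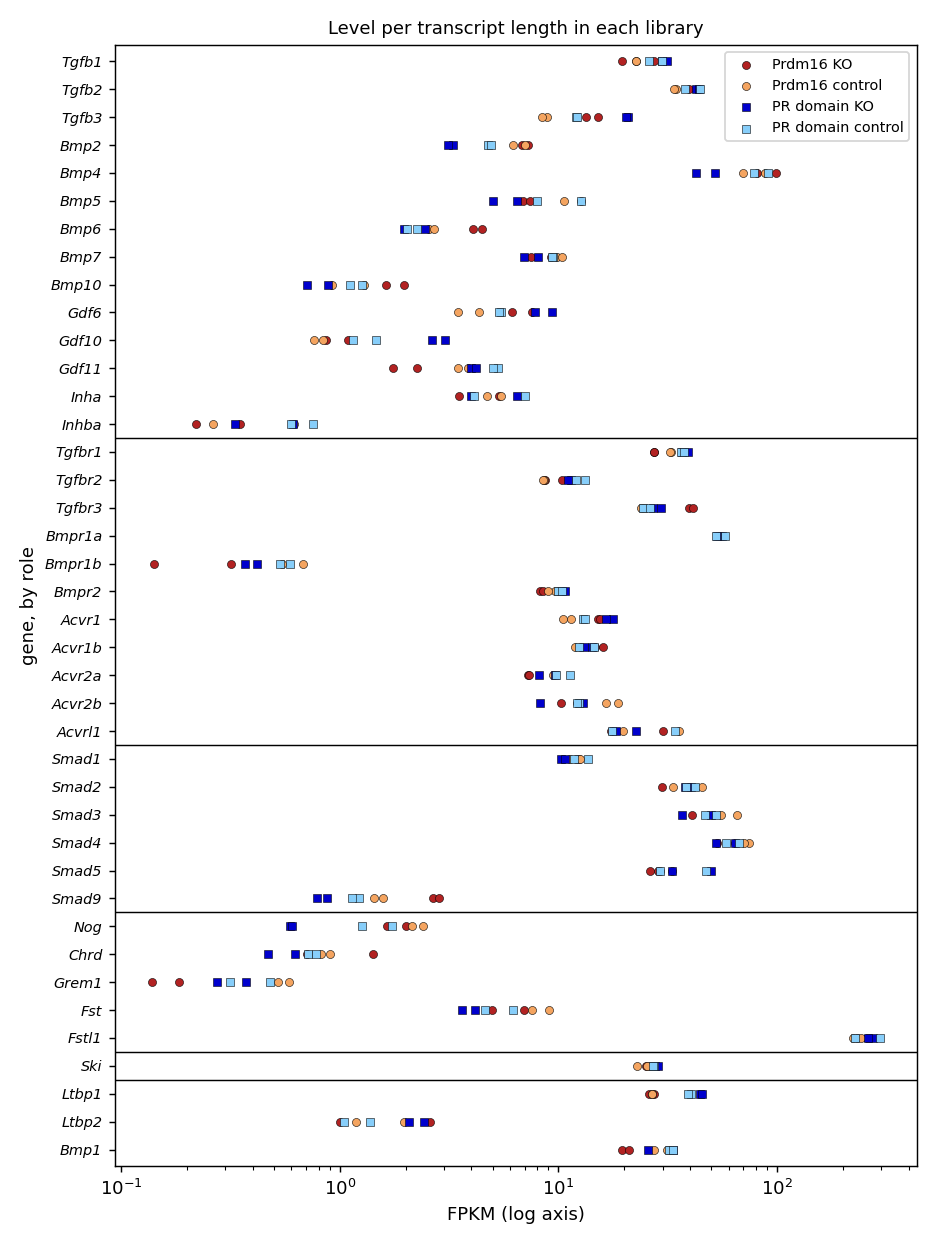
Level of each of the 40 genes per transcript length (x axis, FPKM on a log axis; rows are genes ordered by role). Each point is 1 library, red and orange circles for the Prdm16 knockout and its control, dark and light blue squares for the PR domain knockout and its control; Fstl1 stands apart at the high end, and Grem1, Bmpr1b and Inhba lie below 1 FPKM in all libraries.

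In the Prdm16 knockout 24 of the 40 genes passed the test, 10 higher and 14 lower than in its control, beside 39.1% of all loci tested (18.0% higher and 21.1% lower). That is 60% of the set, against 45.3% among loci with at least 50 normalised fragments in 2 libraries. The set includes genes below that level, and in a fit of those loci alone 22 of 34 genes passed, beside 5873 of 12710 loci. The split depended on scaling, with 14 higher and 12 lower under TMM and 13 higher and 12 lower under median-ratio scaling. In the PR domain knockout 16 passed, 6 higher and 10 lower, which is 40% of the set beside 19.2% of all loci (8.48% higher and 10.7% lower) and 23.1% of loci with at least 50. In the fit of loci with at least 50 alone, 17 of 34 genes passed there, beside 3082 of 12710 loci. The median log2 fold change of the 40 genes was -0.03 in the Prdm16 knockout, where that of all loci was also -0.03, and -0.05 in the PR domain knockout, where that of all loci was -0.03. Only 2 genes per knockout changed by at least 2-fold, Bmpr1b and Grem1 in the Prdm16 knockout and Gdf10 and Nog in the PR domain knockout. Against a minimum fold of 1.5 (limma's treat test) 0 genes passed in either knockout, with 3 at an unadjusted p below 0.05 in each, whereas edgeR called 25 and 18 and DESeq2 17 and 11 without a minimum fold. On log2(FPKM + 1) the counts were 8 and 3. Those that passed there were Tgfb3, Bmp6, Gdf6, Gdf11, Tgfbr3, Acvr1, Smad9 and Grem1 in the Prdm16 knockout, and Tgfb3, Bmp4 and Gdf10 in the PR domain knockout. Every other call of the 40 genes in either knockout was lost on that scale. Under all settings other than FPKM and the minimum fold, left-out libraries included, 16 of 24 genes in the Prdm16 knockout and 8 of 16 in the PR domain knockout kept their call, and with FPKM included 6 and 2 did. A pseudocount of 1 FPKM shrinks the change of low genes, but its part in the moves listed next was not tested. The values that moved include those of Fstl1 and Bmp4, which had high levels, and that of Bmp4 grew. Values that moved by over 1.5 times on the FPKM scale were, in the Prdm16 knockout, Tgfb2 (0.28), Bmp10 (0.41), Bmpr1b (-0.39), Grem1 (-0.42), Acvrl1 (-0.20) and Fstl1 (0.08), and in the PR domain knockout Bmp4 (-0.83), Gdf10 (0.74), Acvrl1 (-0.25), Smad2 (-0.04), Smad4 (-0.11), Nog (-0.64), Fst (-0.37) and Fstl1 (0.05). The libraries of knockout and control did not overlap for 82.5% of the set in the Prdm16 knockout, beside 67.8% of all loci, and for 72.5% in the PR domain knockout, beside 56.6% of all loci. In these bulk samples fewer cells of a type and less RNA per cell cannot be told apart.

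**Figure D2:**
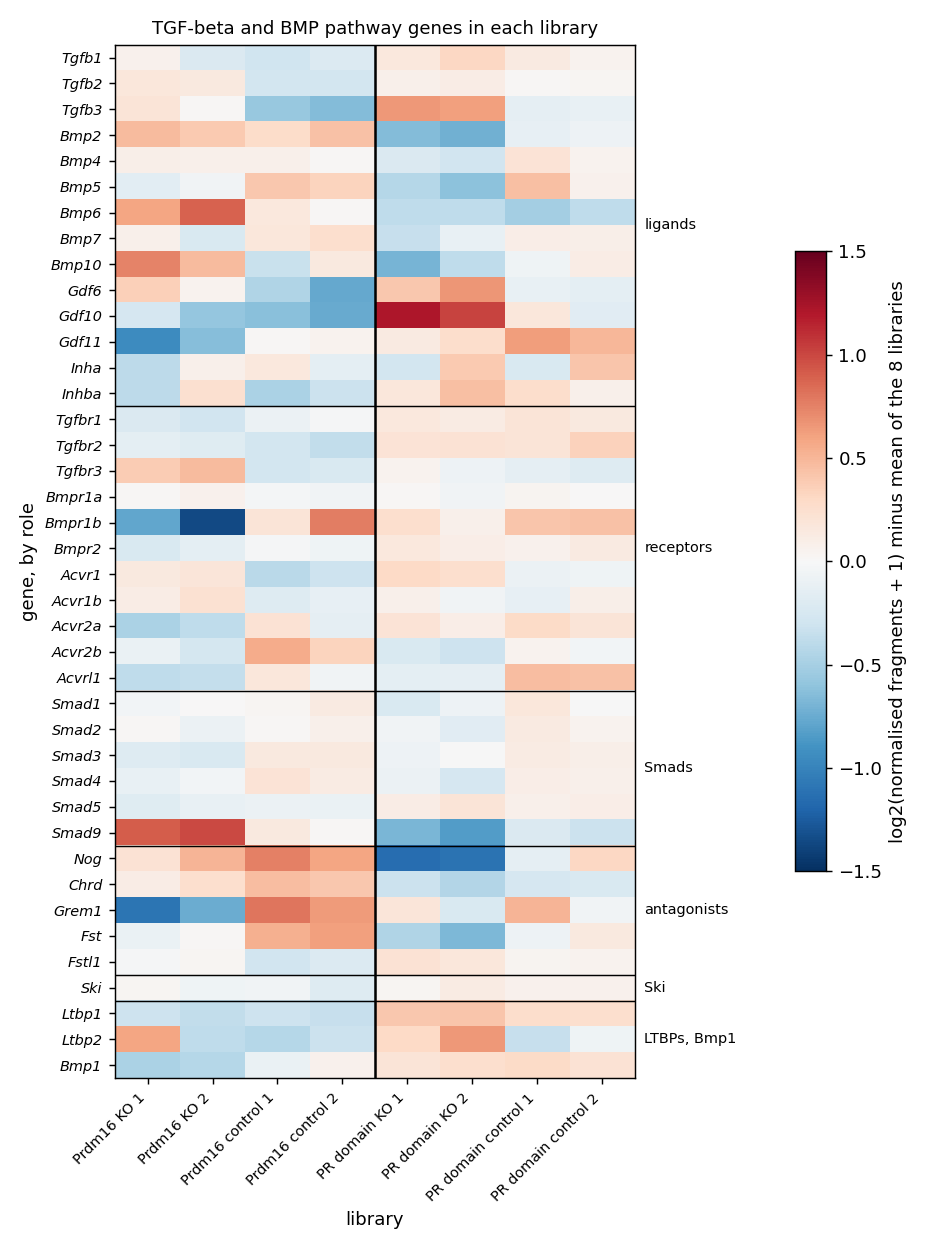
Each cell is log2(normalised fragments + 1) of 1 gene in 1 library minus that gene's mean over the 8 libraries (red higher, blue lower; the scale ends at 1.5 in each direction). Rows are the 40 genes by role, columns the libraries; Smad9 is red in both Prdm16 knockout libraries and blue in both PR domain knockout libraries, and Tgfb3 is red in both PR domain knockout libraries and blue in both Prdm16 control libraries.

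Markers of several cell types moved with the genotype. Of 12 cardiomyocyte markers 9 fell in the Prdm16 knockout, and 1 rose and 9 fell in the PR domain knockout. Their summed values were 3805 to 3818 in the Prdm16 knockout, against 5875 to 6273 in its control. They were 6294 to 6417 in the PR domain knockout, against 13610 to 13923 in its control. Of 12 endothelial markers 2 rose and 6 fell in the Prdm16 knockout (6328 to 6462, against 6877 to 6950 in its control), and all 12 fell in the PR domain knockout (6577 to 6608, against 9075 to 9251 in its control). Of 10 visceral endoderm markers 8 rose in the Prdm16 knockout (78038 to 78658, against 36932 to 38573 in its control), and 9 rose and 1 fell in the PR domain knockout (10058 to 10137, against 5510 to 5773 in its control). Of 10 macrophage markers 9 rose in the Prdm16 knockout, as did all 10 in the PR domain knockout. All 8 tested neural markers fell in the Prdm16 knockout and 3 of them in the PR domain knockout. Of 10 mesenchyme markers 5 rose and 3 fell in the Prdm16 knockout, and 7 rose and 2 fell in the PR domain knockout. Of 8 erythroid markers the Prdm16 knockout had 6 higher and 1 lower, and the PR domain knockout 7 higher. Of 7 tested smooth muscle markers 2 rose and 2 fell in the Prdm16 knockout, and 4 fell in the PR domain knockout. Of 6 tested pluripotency markers 1 rose and 3 fell in the Prdm16 knockout (summed value 841 to 854, against 846 to 872 in its control), and 1 rose and 2 fell in the PR domain knockout (291 to 332, against 427 to 430 in its control). No marker was at 0 in all 8 libraries, and the part of cell composition in the changes of the pathway genes was not tested.

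Of the 14 ligands 5 rose and 3 fell in the Prdm16 knockout (57.1%, beside 39.1% of all loci). In the PR domain knockout 3 rose and 4 fell (50%, beside 19.2% of all loci). The TGF-beta isoforms, which signal through Tgfbr1 and Tgfbr2, behaved unequally. Tgfb3 had 439 and 387 normalised fragments in the Prdm16 knockout libraries, against 258 and 244 in the Prdm16 control libraries (log2 fold change 0.72 ± 0.08, limma adjusted p = 3.5e-08), and 603 and 589.7 in the PR domain knockout libraries, against 349 and 354 in the PR domain control libraries (log2 fold change 0.76 ± 0.08, adjusted p = 2.74e-08). Both knockouts lay above their own controls with no overlap, and the 2 log2 fold changes differed by 0.04 ± 0.12. Tgfb2, the isoform with most fragments, had 1192 and 1173 in the Prdm16 knockout, against 870.4 and 871 in its control (0.44 ± 0.05, adjusted p = 9.16e-08), and 1119 and 1141 in the PR domain knockout, against 1074 and 1079.6 in its control (0.07 ± 0.05, adjusted p = 0.43). It thus rose in the Prdm16 knockout, whose control was the lowest of the 4 groups. Tgfb1 passed in neither knockout, at 300.0 to 457 normalised fragments over the 8 libraries and log2 fold changes of 0.18 ± 0.09 in the Prdm16 knockout, beside 0.14 ± 0.09 in the PR domain knockout. It passed in the Prdm16 knockout under TMM scaling (0.23, adjusted p = 0.0484) and at 0.31 without Prdm16 knockout replicate 2 (adjusted p = 0.0174).

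Among the BMP ligands the pair Bmp2 and Bmp4, close relatives that act in mesoderm and heart formation, fell in the PR domain knockout. Bmp2 had 99.6 and 95.1 normalised fragments there, against 144 and 149 in the PR domain control (-0.58 ± 0.12, adjusted p = 0.000633), and 219.6 and 207 in the Prdm16 knockout, against 189.8 and 213 in the Prdm16 control (0.08 ± 0.12, adjusted p = 0.632). Bmp4 had 299.6 and 287 in the PR domain knockout, against 402 and 362 in its control (-0.38 ± 0.08, adjusted p = 0.00131), and 371 and 369.7 in the Prdm16 knockout, against 368 and 354 in its control (0.04 ± 0.08, adjusted p = 0.76). The PR domain knockout libraries were the lowest of all 8 for both genes. For Bmp4 the fall was -0.30 without PR domain control replicate 1 (adjusted p = 0.0547).

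Bmp5, Bmp6 and Bmp7 form a subgroup of related ligands. Bmp5 fell in both knockouts, with 228 and 245 normalised fragments in the Prdm16 knockout, against 336 and 322 in its control (-0.47 ± 0.11, adjusted p = 0.000997), and 189 and 166 in the PR domain knockout, against 347 and 265 in its control (-0.77 ± 0.11, adjusted p = 3.65e-06). Neither knockout overlapped its control. Bmp7, the ligand known for kidney and eye development, had 295 and 238 in the Prdm16 knockout, against 314 and 332 in its control (-0.28 ± 0.10, adjusted p = 0.0303), and 219.8 and 258 in the PR domain knockout, against 300.2 and 297 in its control (-0.33 ± 0.10, adjusted p = 0.025). These calls were weak. In the Prdm16 knockout the value was -0.44 without Prdm16 knockout replicate 1 (adjusted p = 0.00403), -0.13 without Prdm16 knockout replicate 2 (adjusted p = 0.432), -0.32 without Prdm16 control replicate 1 (adjusted p = 0.0645) and -0.24 without Prdm16 control replicate 2 (adjusted p = 0.17), and the call was also lost under TMM and median-ratio scaling and with edgeR. In the PR domain knockout it was -0.21 without PR domain knockout replicate 1 (adjusted p = 0.298), -0.32 without PR domain control replicate 1 (adjusted p = 0.119) and -0.33 without PR domain control replicate 2 (adjusted p = 0.1), and the call was lost under median-ratio scaling. Bmp6, a regulator of hepcidin in liver, rose in the Prdm16 knockout, with 90.6 and 111 normalised fragments, against 66.8 and 60.2 in its control (0.65 ± 0.20, adjusted p = 0.0089). Its log2 fold change was 0.51 without Prdm16 knockout replicate 2 (adjusted p = 0.117) and 0.58 without Prdm16 control replicate 2 (adjusted p = 0.0739). The PR domain knockout had 45.8 and 45.5, against 41.6 and 45.4 in its control, and Bmp6 did not pass there (adjusted p = 0.867).

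Bmp10, a ligand made by cardiac muscle that signals through Acvrl1, was low, with 31 to 62 fragments per library. Its values were 76.9 and 63.8 normalised fragments in the Prdm16 knockout, against 36.0 and 50.8 in its control (0.70 ± 0.23, adjusted p = 0.0182), and 27.8 and 34.7 in the PR domain knockout, against 43.6 and 49.5 in its control (-0.57 ± 0.23, adjusted p = 0.094). It lay above its control in the Prdm16 knockout and below it in the PR domain knockout, without overlap in either, but only the rise passed the test. The rise was 0.57 without Prdm16 knockout replicate 1 (adjusted p = 0.143) and 0.46 without Prdm16 control replicate 1 (adjusted p = 0.228), and DESeq2 did not call it. The 250 bases before the start of Bmp10, on the plus strand of GRCm38.p6 as RefSeq gives them (chr6:87428744-87428993), are shown because the gene's response to the 2 knockouts differed.
Bmp10: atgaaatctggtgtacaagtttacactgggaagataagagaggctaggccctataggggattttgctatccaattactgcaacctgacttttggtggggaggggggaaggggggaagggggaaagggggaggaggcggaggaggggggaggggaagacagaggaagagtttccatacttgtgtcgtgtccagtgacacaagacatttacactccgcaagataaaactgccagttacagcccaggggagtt
The window holds neither the Smad-binding motif CAGACA, nor the GC-rich motif GGCGCC bound by BMP Smads, nor GACAAGATA, a site selected by the PRDM16 relative encoded by Mecom, on either strand. Its GC content was 52%, and the median over the RefSeq promoter windows of 27025 genes, 1 window per gene, was also 52%.

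Among the growth and differentiation factors Gdf6, a ligand of joint and skeletal development, rose in both knockouts. Its values were 229.5 and 186 normalised fragments in the Prdm16 knockout, against 131 and 105 in its control (0.81 ± 0.13, adjusted p = 8.95e-06), and 239 and 284 in the PR domain knockout, against 166 and 162 in its control (0.66 ± 0.13, adjusted p = 0.000292). Neither pair of groups overlapped. Gdf10, a relative of Bmp3, showed the largest rise of the set in the PR domain knockout, with 139 and 121 normalised fragments, against 66.9 and 52.6 in its control (1.11 ± 0.20, adjusted p = 0.000129). In the Prdm16 knockout it had 49.6 and 39.6, against 38.2 and 34.8 in its control (0.28 ± 0.20, adjusted p = 0.301). Gdf11, a close relative of myostatin that patterns the body axis, fell in the Prdm16 knockout, with 62.0 and 77.0, against 122 and 125 in its control (-0.83 ± 0.14, adjusted p = 2.64e-05). Its values in the PR domain knockout were 133 and 145, against 187 and 171 in its control, which did not pass (-0.36 ± 0.14, adjusted p = 0.0757). It did pass there with edgeR (-0.34, adjusted p = 0.0489), with limma-voom, with only the 4 libraries compared, and without Prdm16 knockout replicate 1 (-0.36, adjusted p = 0.0471). The inhibin alpha gene Inha (39.7 to 70.2 normalised fragments over the 8 libraries) and Inhba (11.7 to 23.2) passed in neither knockout.

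**Figure D3:**
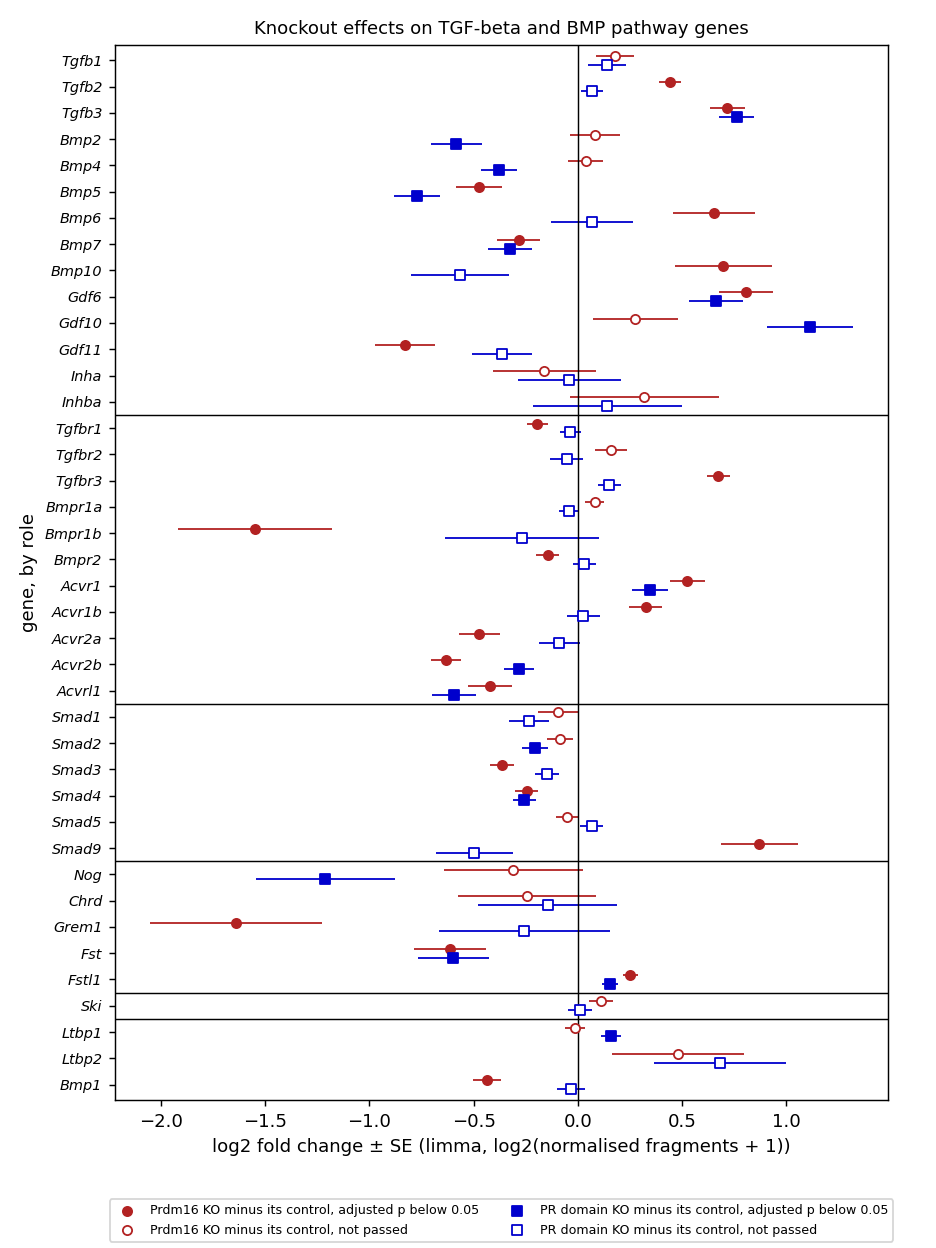
Log2 fold change (x axis, with SE bars) of each of the 40 genes in the Prdm16 knockout against its control (red circles) and in the PR domain knockout against its control (blue squares), by role. Filled symbols passed the test (adjusted p below 0.05); Tgfb3 and Gdf6 lie to the right and Bmp5 and Fst to the left in both, whereas for Smad9 and Bmp10 the symbols lie on opposite sides of 0.

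Of the 11 receptors 3 rose and 6 fell in the Prdm16 knockout (81.8%, beside 39.1% of all loci). In the PR domain knockout 1 rose and 2 fell (27.3%, beside 19.2% of all loci and 23.1% of loci with at least 50 normalised fragments). The co-receptor betaglycan, encoded by Tgfbr3 (chr5:107106570-107289629, GRCm38, minus strand), presents TGF-beta, Tgfb2 above all, to the signalling receptors. Its values were 1768 and 1888 normalised fragments in the Prdm16 knockout, against 1127 and 1164 in its control (0.67 ± 0.05, adjusted p = 2.96e-11), and 1415 and 1287 in the PR domain knockout, against 1243 and 1189 in its control (0.15 ± 0.05, adjusted p = 0.0531). The 2 Prdm16 knockout libraries were the highest of all 8. The smaller difference in the PR domain knockout, just over the threshold here, passed under the other scalings, with 0.18 under TMM (adjusted p = 0.0177), 0.19 under median-ratio and 0.17 under total-fragment scaling, as well as with edgeR and with PR domain knockout replicate 2 left out (0.22, adjusted p = 0.0152). The Tgfbr3 locus carries a second name, Gm43422, so the value belongs to both. The type I receptor gene Tgfbr1 had 1383 and 1316 in the Prdm16 knockout, against 1509 and 1581 in its control (-0.19 ± 0.05, adjusted p = 0.00202), a small fall without overlap that DESeq2 did not call. It did not pass in the PR domain knockout (-0.04 ± 0.05). The type II receptor gene Tgfbr2 passed in neither, at 0.16 ± 0.08 in the Prdm16 knockout, beside -0.05 ± 0.08 in the PR domain knockout, but under TMM scaling it reached 0.21 in the Prdm16 knockout (adjusted p = 0.0322).

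The BMP receptors split by level. Bmpr1a stayed within 1938 to 2103 normalised fragments in all 8 libraries and passed in neither knockout (0.08 ± 0.05 in the Prdm16 knockout, beside -0.04 ± 0.05 in the PR domain knockout). Under TMM scaling Bmpr1a passed in the Prdm16 knockout at 0.13 (adjusted p = 0.0194). Bmpr1b, its relative with a role in cartilage and ovary, fell in the Prdm16 knockout, on 7 and 5 fragments, against 17 and 29 in its control (-1.55 ± 0.37, adjusted p = 0.00121). In the PR domain knockout it had 21 and 20 fragments, against 21 and 21 in its control, and did not pass. The type II receptor gene Bmpr2 had 923 and 981 normalised fragments in the Prdm16 knockout, against 1069.8 and 1036 in its control (-0.14 ± 0.06, adjusted p = 0.0405). This small fall was -0.10 without Prdm16 knockout replicate 1 (adjusted p = 0.279), -0.12 without Prdm16 control replicate 1 (adjusted p = 0.197), -0.17 without Prdm16 control replicate 2 (adjusted p = 0.0662), -0.14 without PR domain control replicate 1 (adjusted p = 0.0504) and -0.14 without PR domain control replicate 2 (adjusted p = 0.0511), and its call was also lost under TMM and median-ratio scaling. Bmpr2 had 1214 and 1160.5 in the PR domain knockout, against 1132 and 1192 in its control, which did not pass.

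The activin-type receptors moved in both directions. Acvr1, a type I receptor that carries BMP signals, rose in both knockouts, with 376 and 387 normalised fragments in the Prdm16 knockout, against 257 and 274 in its control (0.52 ± 0.08, adjusted p = 8.73e-06), and 418 and 404 in the PR domain knockout, against 321 and 325 in its control (0.35 ± 0.08, adjusted p = 0.00292). Both knockouts lay above their controls in every library. Acvr1b, the type I receptor for activin and Nodal, had 565 and 615 in the Prdm16 knockout, against 459 and 482 in its control (0.33 ± 0.08, adjusted p = 0.00139), and did not pass in the PR domain knockout (551 and 505, against 479.7 and 559 in its control). The type II receptor genes fell in the Prdm16 knockout. Acvr2a had 232 and 248 in the Prdm16 knockout, against 376 and 294 in its control (-0.47 ± 0.10, adjusted p = 0.000282), and did not pass in the PR domain knockout (-0.09 ± 0.10). The fall in the Prdm16 knockout was -0.30 without Prdm16 control replicate 1, the higher of the 2 control libraries (adjusted p = 0.0415). Acvr2b had 719.6 and 643 in the Prdm16 knockout, against 1139 and 977 in its control (-0.63 ± 0.07, adjusted p = 2.29e-08), and 658 and 622 in the PR domain knockout, against 804 and 752 in its control (-0.28 ± 0.07, adjusted p = 0.00437). The Prdm16 control libraries were the highest of all 8 for Acvr2b. Its fall in the PR domain knockout was -0.24 without PR domain knockout replicate 2 (adjusted p = 0.0696) and -0.23 without PR domain control replicate 1 (adjusted p = 0.0895).

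Acvrl1 encodes the type I receptor that endothelial cells use for Bmp10. It fell in both knockouts, with 170.0 and 173 normalised fragments in the Prdm16 knockout, against 248 and 213 in its control (-0.42 ± 0.11, adjusted p = 0.00187), and 200.1 and 201 in the PR domain knockout, against 306 and 300.3 in its control (-0.59 ± 0.11, adjusted p = 7.8e-05). In neither pair did the groups overlap. The fall in the Prdm16 knockout was -0.31 without Prdm16 control replicate 1 (adjusted p = 0.0658). On the FPKM scale the groups overlapped, with 17.4 and 30.1 FPKM in the Prdm16 knockout and 35.7 and 19.7 FPKM in its control. Of the 12 endothelial markers given above 6 fell and 2 rose in the Prdm16 knockout, and all 12 fell in the PR domain knockout. Their part in the fall of Acvrl1 was not tested. Acvrl1 (chr15:101128522-101145336) and Acvr1b (chr15:101174067-101213684) are neighbours on the plus strand of chromosome 15 in GRCm38, 28.7 kb apart, and in the Prdm16 knockout Acvr1b rose while Acvrl1 fell.

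Of the 6 Smads 1 rose and 2 fell in the Prdm16 knockout (50%, beside 39.1% of all loci and 45.3% of loci with at least 50 normalised fragments). In the PR domain knockout 2 fell (33.3%, beside 19.2% of all loci). Smad9 (chr3:54755582-54801257, GRCm38, plus strand), the BMP-branch Smad with the lowest level, had 127 and 134 normalised fragments in the Prdm16 knockout, against 74.2 and 67.7 in its control (0.87 ± 0.18, adjusted p = 0.000337). In the PR domain knockout it had 41.3 and 37.2, against 57.8 and 53.7 in its control (-0.50 ± 0.18, adjusted p = 0.0574). The Prdm16 knockout libraries were the highest of all 8 and the PR domain knockout libraries the lowest, though the difference in the PR domain knockout missed the threshold. With a filter of at least 50 normalised fragments it passed (adjusted p = 0.0495). The rise in the Prdm16 knockout kept its call under every setting tried except the minimum fold. The 250 bases before the start of Smad9 (chr3:54755332-54755581, GRCm38.p6, RefSeq) are shown for the same reason as those of Bmp10, with a match to GGCGCC in capitals.
Smad9: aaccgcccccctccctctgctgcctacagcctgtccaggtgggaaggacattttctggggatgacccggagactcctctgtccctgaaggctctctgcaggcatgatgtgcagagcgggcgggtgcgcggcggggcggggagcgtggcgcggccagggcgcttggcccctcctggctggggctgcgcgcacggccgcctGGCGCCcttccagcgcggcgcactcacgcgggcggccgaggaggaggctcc
GGCGCC reads the same on both strands. With 1 window per gene, the first that RefSeq lists, it was found for 7 of the 29 genes of the set that matched and for 9.54% of all 27025 genes. With every listed window of a gene read (35 windows of the 29 genes) it was found for 8, with Smad5 added, and for 10.8% of all genes. CAGACA, searched on both strands, was found for 3 of 29 and 17.1% in the first window, and for 5 of 29 (Tgfb2, Bmp5, Bmpr1b, Tgfbr1 and Ltbp1) and 19.3% in any window. GACAAGATA was found for 0 of 29 either way, and for 0.115% of all genes in the first window. The 29 first windows had a median GC content of 68.8%, above the median of all windows, and GGCGCC is itself made of G and C only. A match is a string of letters and does not show binding.

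Smad1 and Smad5, the other BMP-branch Smads, passed in neither knockout. Smad1 had 282 and 292 normalised fragments in the Prdm16 knockout, against 296 and 317 in its control, and 246 and 275 in the PR domain knockout, against 327 and 288 in its control, where its log2 fold change was -0.24 ± 0.10 (adjusted p = 0.0855). Smad5, whose locus also carries the name Gm27301, stood at -0.05 ± 0.06 in the Prdm16 knockout, beside 0.07 ± 0.06 in the PR domain knockout. In the TGF-beta and activin branch Smad3 had 753 and 736 in the Prdm16 knockout, against 957 and 958 in its control (-0.36 ± 0.06, adjusted p = 9.26e-06), and 817 and 859 in the PR domain knockout, against 940.1 and 915 in its control (-0.15 ± 0.06, adjusted p = 0.0791). Smad3 thus fell in the Prdm16 knockout, and all 4 knockout libraries lay below all 4 control libraries. Smad2 had 837 and 769 in the PR domain knockout, against 954 and 898 in its control (-0.21 ± 0.06, adjusted p = 0.0179), and 879.6 and 816 in the Prdm16 knockout, against 880.0 and 917 in its control (-0.08 ± 0.06, adjusted p = 0.304). The fall of Smad2 was -0.15 without PR domain knockout replicate 2 (adjusted p = 0.215) and -0.16 without PR domain control replicate 1 (adjusted p = 0.209), and its call was lost under median-ratio scaling.

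Smad4, the partner of all receptor-activated Smads, fell in both knockouts in normalised fragments. Its values were 1194 and 1248 normalised fragments in the Prdm16 knockout, against 1492 and 1404 in its control (-0.25 ± 0.06, adjusted p = 0.000798), and 1210.2 and 1080.2 in the PR domain knockout, against 1378 and 1354 in its control (-0.26 ± 0.06, adjusted p = 0.00107). On this scale all 4 knockout libraries lay below all 4 control libraries, and the 2 log2 fold changes differed by -0.01 ± 0.08. The fall in the PR domain knockout was -0.17 without PR domain knockout replicate 2 (adjusted p = 0.0568). In FPKM the groups did not overlap in the Prdm16 knockout (64.5 and 52.9, against 74.8 and 70.7 in its control) but did in the PR domain knockout (63.9 and 52.7, against 58.3 and 67.2 in its control), where the log2 fold change was -0.11 (adjusted p = 0.745).

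Of the 5 antagonists 1 rose and 2 fell in each knockout. Fst, which encodes the activin-binding protein follistatin, fell in both, with 75.7 and 82.5 normalised fragments in the Prdm16 knockout, against 118 and 125 in its control (-0.61 ± 0.17, adjusted p = 0.00496), and 59.2 and 50.5 in the PR domain knockout, against 77.1 and 89.8 in its control (-0.60 ± 0.17, adjusted p = 0.012). Neither pair of groups overlapped. The value in the Prdm16 knockout was -0.57 without Prdm16 control replicate 2 (adjusted p = 0.0502), and that in the PR domain knockout -0.48 without PR domain knockout replicate 2 (adjusted p = 0.132) and -0.49 without PR domain control replicate 2 (adjusted p = 0.145). Fstl1, the gene with the highest level of the set, rose in both by a small amount on the scale of normalised fragments. It had 4837 and 4982 in the Prdm16 knockout, against 4017 and 4230.5 in its control (0.25 ± 0.04, adjusted p = 2.54e-06), and 5689.5 and 5520.2 in the PR domain knockout, against 5023 and 5051 in its control (0.15 ± 0.04, adjusted p = 0.00283). Mesenchyme makes much Fstl1. Of its 10 markers 5 rose and 3 fell in the Prdm16 knockout, and 7 rose and 2 fell in the PR domain knockout. Their summed value was higher in both knockouts, at 108325 to 110680 in the Prdm16 knockout, against 79125 to 79137 in its control. It was 143654 to 144288 in the PR domain knockout, against 108608 to 109748 in its control. The part of these markers in the rise of Fstl1 was not tested. In FPKM the groups of Fstl1 overlapped, with 231 and 258 in the Prdm16 knockout, against 241 and 223 in its control, and 274 and 261 in the PR domain knockout, against 227 and 296 in its control, and its log2 fold changes on that scale were 0.08 in the Prdm16 knockout (adjusted p = 0.735) and 0.05 in the PR domain knockout (adjusted p = 0.898).

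The antagonists that bind BMPs rest on few fragments. Grem1 fell in the Prdm16 knockout, on 4 and 6 fragments, against 20 and 20 in its control (-1.64 ± 0.41, adjusted p = 0.00195), and had 15 and 12 fragments in the PR domain knockout, against 17 and 11 in its control (-0.26 ± 0.41, adjusted p = 0.742). DESeq2 did not call the fall. Nog fell in the PR domain knockout, on 9 and 10 fragments, against 17 and 23 in its control (-1.21 ± 0.33, adjusted p = 0.00862), and had 18 and 25 fragments in the Prdm16 knockout, against 31 and 31 in its control (-0.31 ± 0.33, adjusted p = 0.492). The fall of Nog was -0.99 without PR domain control replicate 2 (adjusted p = 0.123), and DESeq2 did not call it. Chrd, on 15 to 26 fragments per library, passed in neither. Grem1 and Nog thus each passed in 1 knockout, but the difference between the knockouts passed for neither (Grem1 1.38 ± 0.58, adjusted p = 0.106; Nog -0.90 ± 0.47, adjusted p = 0.205).

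Ski itself passed in neither knockout with the authors' scaling. Its values were 1194 and 1123 normalised fragments in the Prdm16 knockout, against 1126 and 1023 in its control (0.11 ± 0.06, adjusted p = 0.135), and 1194 and 1279 in the PR domain knockout, against 1225 and 1230.2 in its control (0.01 ± 0.06, adjusted p = 0.942). The groups overlapped in both comparisons. Ski did pass in the Prdm16 knockout at 0.16 under TMM scaling (adjusted p = 0.0291), at 0.15 under median-ratio scaling, with edgeR and limma-voom, and at 0.18 without Prdm16 control replicate 1 (adjusted p = 0.0475). Ltbp1, which tethers latent TGF-beta to the matrix, had 2123 and 2129 in the PR domain knockout, against 1918 and 1897 in its control (0.16 ± 0.05, adjusted p = 0.0183). This small rise lost its call when any 1 of the 4 libraries compared was left out, at 0.16 without PR domain knockout replicate 1 (adjusted p = 0.0563), 0.15 without PR domain knockout replicate 2 (adjusted p = 0.0672), 0.16 without PR domain control replicate 1 (adjusted p = 0.0876) and 0.15 without PR domain control replicate 2 (adjusted p = 0.131). In the Prdm16 knockout Ltbp1 had 1287 and 1241, against 1293 and 1257 in its control, with overlap. Ltbp2, a relative that does not bind latent TGF-beta, passed in neither, at 19.1 to 41.4 normalised fragments over the 8 libraries. The Prdm16 knockout libraries had 39.7 and 19.8, against 19.1 and 20.7 in its control, and without Prdm16 knockout replicate 2 the log2 fold change was 0.96 (adjusted p = 0.0312). Bmp1, despite its name a metalloproteinase that cleaves chordin and procollagens, fell in the Prdm16 knockout, with 524 and 540.2 normalised fragments, against 679.6 and 762 in its control (-0.44 ± 0.07, adjusted p = 3.76e-06). The PR domain knockout had 832 and 865, against 892 and 845 in its control (-0.03 ± 0.07, adjusted p = 0.795), with overlap.

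The 2 knockouts were compared with separate controls, and 10 genes passed in both, all in the same direction. Tgfb3, Gdf6, Acvr1 and Fstl1 rose in both, and Bmp5, Bmp7, Acvr2b, Acvrl1, Smad4 and Fst fell in both. These are 41.7% of the genes that passed in the Prdm16 knockout and 62.5% of those that passed in the PR domain knockout, or 25.0% of the 40 genes, where 12.9% of all loci passed in both, 11.6% in the same direction and 1.28% in opposite directions. Another 10 genes passed in neither with the authors' scaling, namely Tgfb1, Inha, Inhba, Tgfbr2, Bmpr1a, Smad1, Smad5, Chrd, Ski and Ltbp2.

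The difference between the knockout effects, PR domain minus Prdm16, passed the test for 9 of the 40 genes (22.5%), beside 16.4% of all loci (7.81% higher and 8.6% lower) and 19.9% of loci with at least 50 normalised fragments. In a fit of loci with at least 50 alone, 9 of 34 genes passed, beside 2703 of 12710 loci. The difference draws on all 4 groups, both controls included. The largest called differences were those of Smad9 (-1.37 ± 0.26, adjusted p = 0.000341) and Bmp10 (-1.26 ± 0.33, adjusted p = 0.00784), both higher in the Prdm16 knockout and with point estimates below 0 in the PR domain knockout. Bmp2 (-0.67 ± 0.17, adjusted p = 0.0072) and Bmp4 (-0.42 ± 0.12, adjusted p = 0.0154) fell in the PR domain knockout, with log2 fold changes of 0.08 and 0.04 in the Prdm16 knockout. Tgfbr3 (-0.52 ± 0.08, adjusted p = 1.12e-05) and Tgfb2 (-0.37 ± 0.08, adjusted p = 0.000733) had the larger rise in the Prdm16 knockout. Bmp1 (0.40 ± 0.09, adjusted p = 0.00284) and Acvr2b (0.35 ± 0.10, adjusted p = 0.0151) had the larger fall there, and Gdf10 (0.84 ± 0.29, adjusted p = 0.0447) the larger rise in the PR domain knockout. The differences of Smad9, Tgfb2, Tgfbr3 and Bmp1 passed with any 1 library left out. That of Bmp2 was -0.58 without Prdm16 control replicate 1 (adjusted p = 0.0511) and that of Bmp10 -1.02 without Prdm16 control replicate 1 (adjusted p = 0.0629). That of Bmp4 was -0.39 without Prdm16 control replicate 2 (adjusted p = 0.0609), -0.39 without PR domain knockout replicate 2 (adjusted p = 0.0542) and -0.34 without PR domain control replicate 1 (adjusted p = 0.106). That of Acvr2b was 0.27 without Prdm16 knockout replicate 2 (adjusted p = 0.0943), 0.24 without Prdm16 control replicate 1 (adjusted p = 0.154), 0.31 without PR domain knockout replicate 1 (adjusted p = 0.0712) and 0.30 without PR domain control replicate 2 (adjusted p = 0.0839). That of Gdf10 was 0.68 without Prdm16 knockout replicate 2 (adjusted p = 0.147), 0.77 without Prdm16 control replicate 1 (adjusted p = 0.121), 0.90 without Prdm16 control replicate 2 (adjusted p = 0.0635), 0.74 without PR domain knockout replicate 1 (adjusted p = 0.179), 0.94 without PR domain knockout replicate 2 (adjusted p = 0.0727) and 0.67 without PR domain control replicate 2 (adjusted p = 0.18), and it was also lost under TMM scaling. Genes whose difference passed with 1 library left out, but not with all 8, were Acvr1b (-0.36 without Prdm16 knockout replicate 1 and -0.41 without PR domain control replicate 1), Gdf11 (0.62 without Prdm16 knockout replicate 2), Acvr2a (0.56 without Prdm16 control replicate 2) and Bmp5 (-0.49 without PR domain control replicate 2), of which Acvr1b also passed under TMM scaling, with edgeR and with limma-voom, and Acvr2a under total-fragment scaling. Total-fragment scaling gave 8 higher and 6 lower differences, against 3 higher and 6 lower with the authors' scaling and 2 higher and 7 lower under TMM. Without Prdm16 control replicate 1 the count of differences was 5, and on log2(FPKM + 1) it was 0, with 8 genes at an unadjusted p below 0.05. The values that moved by over 1.5 times on that scale were those of Tgfb2 (-0.21), Bmp4 (-1.02), Bmp10 (-0.70) and Smad9 (-0.84).

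**Figure D4:**
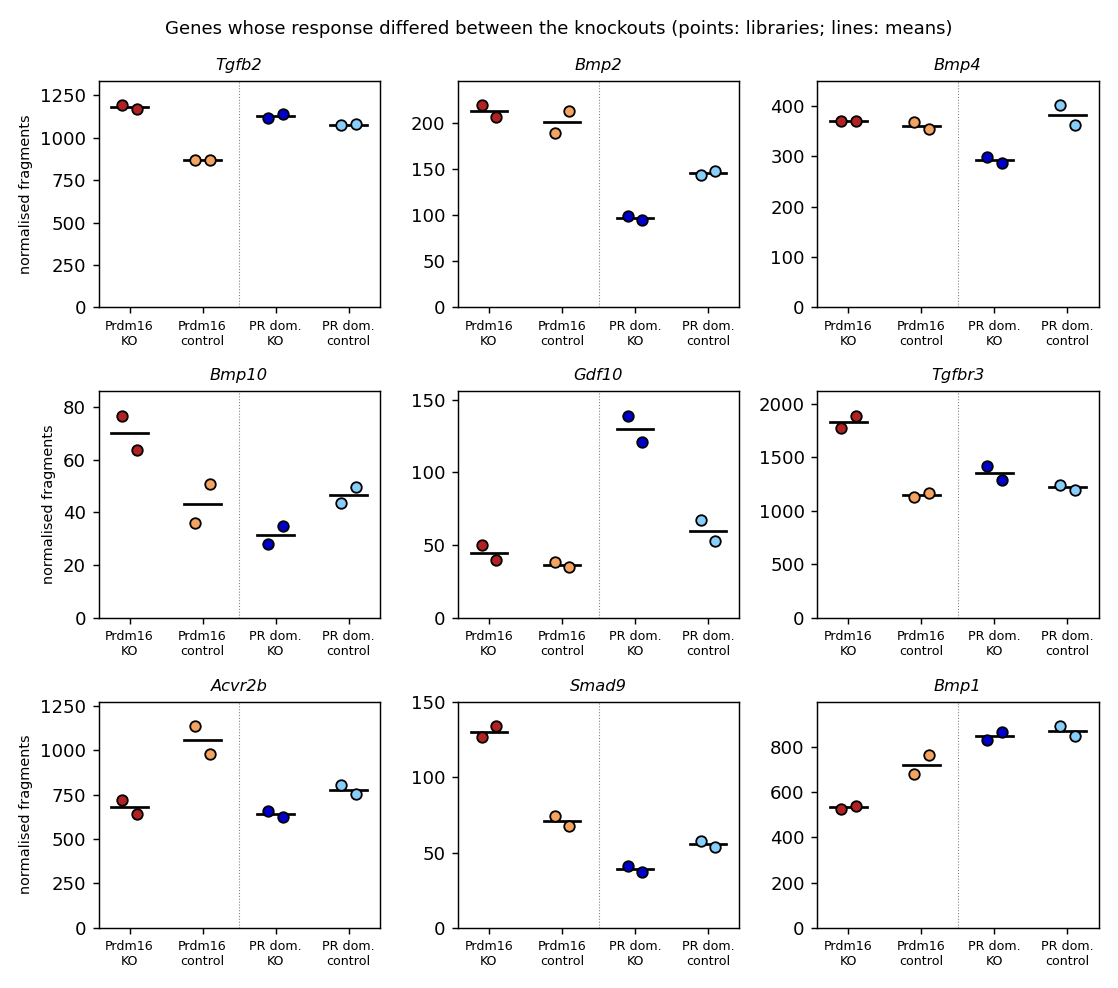
Normalised fragments (y axis, from 0) in each library (points) and the mean of each group (lines) for the 9 genes whose response differed between the knockouts. In each panel the groups run, left to right, Prdm16 knockout, its control, PR domain knockout, its control; Smad9 reaches 127 and 134 in the Prdm16 knockout and 41.3 and 37.2 in the PR domain knockout.

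The wild-type controls themselves differed. Between the PR domain control and the Prdm16 control 19 of 40 genes passed (47.5%), 15 higher and 4 lower in the PR domain control, beside 33.0% of all loci (16.3% higher and 16.7% lower) and 38.4% of loci with at least 50 normalised fragments. In a fit of loci with at least 50 alone, 20 of 34 genes passed, beside 5019 of 12710 loci. Only 7 of the 19 passed with any 1 library left out. Of these Ltbp1 had 1918 and 1897 normalised fragments in the PR domain control, against 1293 and 1257 in the Prdm16 control (0.58 ± 0.05, adjusted p = 3.09e-11), and Tgfbr2 had 513 and 569.7, against 371 and 348 in the Prdm16 control (0.59 ± 0.08, adjusted p = 3.89e-07). The others were Tgfb3 (0.49), Tgfb2 (0.31), Tgfbr1 (0.23), Fstl1 (0.29) and Acvr2b (-0.44). Without Prdm16 control replicate 2 the count was 11, and on log2(FPKM + 1) it was 3 (Ltbp1, Tgfbr2 and Tgfb3). Of the 19 genes, Ltbp1, Tgfbr2, Tgfb1, Tgfbr1, Smad5, Fstl1 and Ski differed more between the controls than either knockout did from its own control. This compares the size of point estimates, whatever their sign. The sizes were close for Fstl1 (controls 0.29, Prdm16 knockout 0.25, PR domain knockout 0.15) and Tgfbr1 (0.23, -0.19 and -0.04). The SE of each value was 0.04 for Fstl1 and 0.05 for Tgfbr1. Of the 10 genes that passed in both knockouts, the controls differed in the direction in which both knockouts moved for 6 (Tgfb3, Gdf6, Acvr1, Acvr2b, Fst and Fstl1). This direction by itself places the PR domain control between the PR domain knockout and the Prdm16 control. For Acvrl1 the controls differed in the opposite direction, and for Bmp5, Bmp7 and Smad4 their difference did not pass.

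Other genes of the pathway were read from a list of 64, of which 52 lay on 51 tested loci, since Lefty1 and Lefty2 share 1. In the Prdm16 knockout 9 of the 51 rose and 23 fell (median log2 fold change -0.23), beside 39.1% of all loci called (18.0% higher and 21.1% lower). The PR domain knockout had 7 higher and 13 lower (median -0.12), beside 19.2% of all loci (8.48% higher and 10.7% lower), and the median of all loci was -0.03 in both. In the Prdm16 knockout the smallest adjusted p-values belonged to Bambi, Lrrc32, Bmper, Id4, Id3 and Itgb8. Bambi, a decoy receptor without a kinase, had 1546 and 1479.8 normalised fragments there, against 826 and 815 in its control (0.88 ± 0.05, adjusted p = 3.38e-14), and 1373 and 1424 in the PR domain knockout, against 1125 and 1144 in its control (0.30 ± 0.05, adjusted p = 6.55e-05). Lrrc32, which displays latent TGF-beta on the cell surface, rose in both, by 1.03 ± 0.10 in the Prdm16 knockout, beside 0.82 ± 0.10 in the PR domain knockout. Bmper, a secreted BMP modulator, fell to 40.9 and 28.6 normalised fragments in the Prdm16 knockout, against 139 and 151 in its control (-2.05 ± 0.21, adjusted p = 2.26e-09). Its fall in the PR domain knockout (-0.92 ± 0.21) was -0.72 without PR domain control replicate 2 (adjusted p = 0.0592). Itgb8, an integrin subunit that activates latent TGF-beta, had 55.8 and 73.7 in the Prdm16 knockout, against 131 and 156 in its control (-1.15 ± 0.15, adjusted p = 1.87e-07), and did not pass in the PR domain knockout (-0.12 ± 0.15). On log2(FPKM + 1) the PR domain knockout changes of Bambi (0.29, limma adjusted p = 0.105) and Lrrc32 (0.77, adjusted p = 0.0591) did not pass. That of Bmper (-1.11, adjusted p = 0.0991) did not pass there either.

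The Id genes, inhibitors of basic helix-loop-helix factors and classic direct targets of BMP Smads, were among the genes with the smallest adjusted p in both knockouts. These were Id1, Id2 and Id3 in the PR domain knockout, and Id3 and Id4 in the Prdm16 knockout. Id1 had 423 and 416 normalised fragments there, against 783 and 813 in its control (-0.93 ± 0.07, adjusted p = 3.56e-12), and 876 and 793 in the Prdm16 knockout, against 867 and 909 in its control (-0.09 ± 0.07, adjusted p = 0.284). Id2 had 1225 and 1318 in the PR domain knockout, against 1815 and 1771 in its control (-0.50 ± 0.05, adjusted p = 1.9e-08), and 1902 and 2126 in the Prdm16 knockout, against 1736 and 1783 in its control (0.19 ± 0.05, adjusted p = 0.00431), where the small rise was 0.11 without Prdm16 knockout replicate 2 (adjusted p = 0.17). Id3 fell in both, with 824 and 745 in the Prdm16 knockout, against 1151 and 1099 in its control (-0.52 ± 0.06, adjusted p = 1.32e-07), and 475 and 519 in the PR domain knockout, against 943 and 925 in its control (-0.91 ± 0.06, adjusted p = 4.01e-12). Id4 also fell in both, by -1.65 ± 0.19 in the Prdm16 knockout, beside -1.05 ± 0.19 in the PR domain knockout. On log2(FPKM + 1) its fall in the PR domain knockout did not pass (limma adjusted p = 0.162). The PR domain knockout was thus lower than its control for all 4 Id genes, and in it Bmp2 and Bmp4 were also lower. In the Prdm16 knockout Id3 and Id4 fell, whereas Bmp2 (0.08) and Bmp4 (0.04) did not pass. A link between these ligands and the Id genes was not tested. Of the other named genes Tdgf1, a Nodal co-receptor of pluripotent cells, had 22.4 and 34.7 in the PR domain knockout, against 122 and 127 in its control (-2.11 ± 0.18, adjusted p = 1.04e-10), and fell in the Prdm16 knockout too (-1.01 ± 0.18). The matricellular target Ctgf had 722 and 741 in the PR domain knockout, against 1167 and 1108 in its control (-0.64 ± 0.06, adjusted p = 6.69e-10), and rose in the Prdm16 knockout (0.23 ± 0.06, adjusted p = 0.00159). Thbs1, a matrix protein that can activate latent TGF-beta, rose in the PR domain knockout (0.38 ± 0.04, adjusted p = 6.04e-09) and fell slightly in the Prdm16 knockout (-0.17 ± 0.04, adjusted p = 0.000709). The changes of Id2, Ctgf and Thbs1 in the Prdm16 knockout did not pass on log2(FPKM + 1).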

How the data were processed

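Total RNA from 8 libraries of day 9 embryoid bodies was extracted with Trizol and RNeasy columns and sequenced from Illumina TruSeq libraries, per the labels' protocols. The submitters' processing notes list the build mm10 and the tools Cufflinks 2.2.1, deepTools, SAMtools 1.5 and TopHat2 2.1.1, without saying what each did. Whether counting used strand is not given in the sources, so overlapping genes cannot be told apart. Exons of 13 of the 40 genes overlap another annotated gene in GENCODE M21 (GRCm38). These were Tgfb2, Tgfb3, Bmp4, Bmp5, Bmp6, Tgfbr3, Bmpr1a, Acvr2a, Acvrl1, Smad5, Chrd, Fst and Ltbp2.

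The values tested are signal values as deposited, that is, fragment totals of each locus that the authors scaled by a size factor for each library, per the file headers. Divided by the smallest step of its library, a value was a whole number of fragments (to within 0.1) in 99.99 to 100% of cases. The authors also deposited FPKM values, used for levels between genes and as an alternative. Lines without a gene name held 1.88 to 2.53% of the fragments and were left out.

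Values already normalised call for no count test, so limma 3.58.1 (R 4.3.3) was used with an intensity trend on log2(value + 1), for loci with at least 10 in at least 2 libraries. A single fit of the 4 group means left 4 residual and 25.4 prior degrees of freedom. The knockouts were each compared with their own control, the 2 effects with each other, and the PR domain control with the Prdm16 control, with Benjamini-Hochberg adjustment over 16623 loci. Chi-square values of 1.39 to 2.17 per degree of freedom put the replicates further apart than sampling noise. The scripts were tested on simulated data. Groups and replicate numbers came from the sample titles. Every gene of the set is reported by role, and the 6 other pathway genes with the smallest adjusted p per knockout are named. The genes and lists were chosen with earlier results of these data known. Alternatives were other scalings, pseudocounts (0.5 and 5) and filters (none, and at least 50), edgeR 4.0.16, DESeq2 1.42.0 and limma-voom on the recovered counts, log2(FPKM + 1), the 4 compared libraries alone, a replicate block, each library left out and a minimum fold of 1.5.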

Additional observations from a re-analysis of the deposited data

Results flagged for a closer look

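For 18 genes, 9 of the set and 9 of the other pathway genes named above, the effects of the 2 knockouts differed by the test of the difference itself (PR domain effect minus Prdm16 effect, limma, Benjamini-Hochberg over 16623 loci, SE from the model). Among the ligands the difference was -0.37 ± 0.08 for Tgfb2, -0.67 ± 0.17 for Bmp2, -0.42 ± 0.12 for Bmp4, -1.26 ± 0.33 for Bmp10 and 0.84 ± 0.29 for Gdf10. Among receptors it was -0.52 ± 0.08 for Tgfbr3 and 0.35 ± 0.10 for Acvr2b. It was -1.37 ± 0.26 for Smad9 and 0.40 ± 0.09 for Bmp1. Of the other pathway genes named, the difference was -1.11 ± 0.25 for Tdgf1, -0.58 ± 0.07 for Bambi, -0.83 ± 0.09 for Id1, -0.69 ± 0.07 for Id2, -0.39 ± 0.09 for Id3, 0.55 ± 0.05 for Thbs1, 1.03 ± 0.21 for Itgb8, 1.13 ± 0.29 for Bmper and -0.87 ± 0.08 for Ctgf. A negative value means a lower log2 fold change in the PR domain knockout than in the Prdm16 knockout. Id2, Ctgf and Thbs1 passed the test in both knockouts in opposite directions, with log2 fold changes of -0.50, -0.64 and 0.38 in the PR domain knockout and 0.19, 0.23 and -0.17 in the Prdm16 knockout. On log2(FPKM + 1) their changes in the Prdm16 knockout did not pass (limma adjusted p = 0.144 for Id2, 0.136 for Ctgf and 0.134 for Thbs1). On that scale the difference between the knockouts did not pass for Bmper (0.35, limma adjusted p = 0.711) or Id3 (-0.40, adjusted p = 0.199). It did not pass there for Tdgf1 (-0.78, adjusted p = 0.185) or Itgb8 (0.69, adjusted p = 0.132) either. The same was true of Bambi (-0.56, adjusted p = 0.0793) and Thbs1 (0.54, adjusted p = 0.0514). The rise of Id2 in the Prdm16 knockout was 0.11 without Prdm16 knockout replicate 2 (adjusted p = 0.17). The difference of Bmper was 0.94 without PR domain control replicate 1 (adjusted p = 0.0556). The difference of Bmper also did not pass with DESeq2 (adjusted p = 0.0617) or without the filter on low values (limma adjusted p = 0.0551). The same differences for the genes of the set with 1 library left out are given beside their results above.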

How the results depend on the processing

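Of the 40 genes, 24 passed in the Prdm16 knockout, 16 in the PR domain knockout, 9 for the difference between the effects and 19 between the controls. On log2(FPKM + 1) these counts were 8, 3, 0 and 3, and of all loci 2244, 582, 199 and 1717 passed, against 6502, 3190, 2728 and 5481 in the main test. With a minimum fold of 1.5 they were 0, 0, 0 and 0, with 3, 3, 2 and 0 genes at an unadjusted p below 0.05, and 683, 221, 169 and 761 of all loci passed. DESeq2 called 4 genes for the difference and 3983, 1797, 1179 and 3388 of all loci. Without the filter on low values 1642 loci passed for the difference. Total-fragment scaling gave 14 genes for the difference. With 1 library left out the counts of genes were 20 to 24, 11 to 17, 5 to 10 and 11 to 20, and those of all loci 5028 to 6477, 2180 to 3367, 1950 to 2390 and 4047 to 5675. The cause of these shifts was not tested. The lone library then left in a group is assumed to vary like the others. Among genes that passed, the only change of sign was Acvrl1 between the controls, at -0.11 on log2(FPKM + 1). Of genes that did not pass, 9 of 16, 9 of 24, 11 of 31 and 7 of 21 changed sign under some setting, none past the test.

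With the replicate number as a block the counts stayed at 24, 16, 9 and 19. Deviations of same-numbered libraries correlated at -0.04 to 0.03, so the numbers were not taken to pair the libraries. Scaling moved the share of higher calls among all loci, which was 45.9% in the Prdm16 knockout with the authors' scaling, 55.0% under TMM and 39.3% under total-fragment scaling, in the PR domain knockout 44.2%, and 54.4% under median-ratio scaling, and for the difference 47.6% and, under total-fragment scaling, 63.0%. Genes with few fragments (Bmpr1b, Grem1, Nog, Chrd and Inhba) limit what smaller changes could be detected.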
